A study of Mus musculus with 6 samples.

Results

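Fatty acid oxidation and ketone body synthesis were followed in mouse liver through 47 named genes, of which 46 had a row among the 28476 genes of the expression table. The remaining gene, Eci3, was not analysed here. The genes were named by symbol, with no cut-off on their measured levels, but they were chosen with earlier results of these data known. They were sorted by role into fatty acid uptake and binding, activation to acyl-CoA, the carnitine shuttle, mitochondrial beta-oxidation, the electron transfer flavoprotein, peroxisomal beta-oxidation, acyl-CoA thioesterases, ketone body synthesis and the pyruvate dehydrogenase kinase Pdk4. The study asked about the ubiquitin ligase NEDD4-1 in liver injury by acetaminophen (APAP), an analgesic that is toxic to the liver at high dose. Livers of C57BL/6 mice came from 2 groups with 3 RNA-seq libraries each, labelled by genotype as Nedd4 HepKO and Flox. All animals, Flox included, had been fasted overnight and then given 300 mg/kg APAP into the peritoneum, and the liver was taken after 24 h. Livers without APAP were not analysed here, so every value below compares genotypes after the drug and says nothing about either genotype without it. The sources used here do not give the promoter of the Cre transgene, the age and sex of the animals or the number of animals per library, and p-values therefore measure the spread between these libraries.

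Fatty acids that enter a hepatocyte are bound to carrier proteins, joined to coenzyme A, and passed as carnitine esters into mitochondria, where a repeating cycle of dehydrogenation, hydration, dehydrogenation and thiolysis shortens them to acetyl-CoA. Very long and branched chains are first shortened in peroxisomes, and medium-chain products leave these as carnitine esters. In fasting, liver turns much of the acetyl-CoA into the ketone bodies acetoacetate and 3-hydroxybutyrate, and many of these genes are targets of the nuclear receptor PPARA, which is activated by fatty acids.

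Expression was given as FPKM, sequenced fragments scaled by transcript length and library size, which allows levels of different genes to be set side by side. Nedd4 itself, the targeted gene, had 0.618, 0.666 and 0.565 FPKM in HepKO livers, against 2.18, 2.59 and 2.23 FPKM in Flox livers. It was 3.78-fold lower in HepKO livers with no overlap between the groups (log2 difference -1.04, SE 0.10, limma adjusted p = 0.00148). An exact two-sided permutation test gave p = 0.10, the smallest value that 3 libraries against 3 can give. The 11 hepatocyte marker genes that had a row gave 46101 to 50742 summed FPKM in HepKO livers, against 42386 to 47641 in Flox livers. Alb alone averaged 26922 FPKM in HepKO livers and 25956 FPKM in Flox livers. Of the 11, 3 passed the test as lower, namely Cps1, Asgr1 and Asgr2 (log2 differences -1.25, -0.56 and -0.67). Fgb was the 1 that passed as higher (0.81). The call of Asgr1 was lost without HepKO replicate 2 or any 1 Flox library. All 8 tested neutrophil markers were higher in HepKO livers, with 134 to 160.4 summed FPKM in HepKO livers, against 10.6 to 20.5 in Flox livers and with Ly6g at 0 in some libraries, and 4 of 5 tested erythrocyte genes were higher, with 551 to 974 summed FPKM in HepKO livers, against 132 to 234 in Flox livers. Of 8 tested monocyte and macrophage markers, 4 were higher and 1 lower, with 126 to 159 summed FPKM in HepKO livers, against 87.8 to 110.5 in Flox livers. Stellate cell markers gave 40.8 to 58.4 summed FPKM in HepKO livers, against 26.3 to 34.5 in Flox livers, with 2 of 8 higher. Their median log2 difference was -0.09, and it was below 0 for 5 of the 8. Much of the sum was Dcn, which averaged 33.4 FPKM in HepKO livers and 18.6 FPKM in Flox livers. Dcn was called higher, and that call was lost without any 1 library other than HepKO replicate 3. Cholangiocyte markers, which share Spp1 with the monocyte list, gave 50.8 to 66.2 in HepKO livers, against 25.4 to 35.1 in Flox livers. Of 4 tested, 2 were higher. The sums of Kupffer cell and sinusoidal endothelial markers overlapped between the groups. In bulk liver, fewer cells of a type and less RNA per cell cannot be told apart, and the part of these cell types in the results below was not tested. Summed FPKM over all genes lay between 456176 and 496303 per library, and the number of reads behind the values is unknown. Coordinates are those deposited, which equal the GENCODE M21 annotation of GRCm38 for every gene given with them here. Transcripts of the mitochondrial genome made up 24.6%, 18.3% and 17.2% of the sum in HepKO livers, against 16.7%, 18.1% and 17.0% in Flox livers.

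Most transcripts of mitochondrial beta-oxidation and those of the electron transfer flavoprotein, of the medium-chain synthetases and of Bdh1 were lower in HepKO livers. Most genes of the carnitine shuttle, of peroxisomal beta-oxidation and of the thioesterases did not pass the test. The median log2 difference was -0.61 for the mitochondrial step, -0.58 for the carnitine shuttle, -0.37 for peroxisomal beta-oxidation and -0.31 for the thioesterases. Whether the steps differed from each other was not tested. Of the 46 genes, all of which passed the filter on low values, 23 fell, 1 rose (Acsl4) and 22 did not pass the test. Across all 12712 genes tested, 11.0% were called lower, 9.33% were called higher and 20.3% were called in either direction (limma on log2(FPKM + 1), Benjamini-Hochberg adjusted p under 0.05). The median log2 difference was -0.59 over the 46 genes and -0.06 over all tested genes. Of 3246 genes that averaged 10 FPKM or more, 607 were lower and 309 higher, with a median of -0.13. In 29 of the 46 genes every HepKO value lay below every Flox value, and in 3 every HepKO value lay above. Over all tested genes, 25.2% were separated with HepKO lower and 17.2% with HepKO higher. Means fell at least 2-fold in 7 called genes, namely Acsl1, Acsm3, Acsm5, Crot, Hadh, Acot4 and Bdh1. All calls numbered 2583, split into 1397 lower and 1186 higher, and the split was 1137 lower and 1434 higher after median-ratio rescaling and 1417 lower and 1093 higher after rescaling to a common sum. With 1 library left out, all calls numbered 1306 without HepKO replicate 2, 1322 without Flox replicate 2, 1480 without Flox replicate 3 and 1661 without HepKO replicate 1. The calls among the 46 genes also depended on single libraries, since 12 of the 46 genes were called lower without HepKO replicate 2 and likewise 12 without Flox replicate 2, while 23 were without HepKO replicate 3. Calls held with any 1 library left out for 11 genes: Slc27a2, Acsm1, Acsm3, Acsm5, Crot, Hadh, Acaa2, Etfa, Etfb, Hsd17b4 and Bdh1. The authors' deposited table gave a q-value under 0.05 to 26 of the 46 genes, and 23 of these were also called here. The others were Acsl5 (q = 0.0192), which was higher in HepKO livers, and Crat (0.0113) and Acot3 (0.00318), which were lower. Acadl, called lower here, had an authors' q-value of 0.161.

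**Figure D1:**
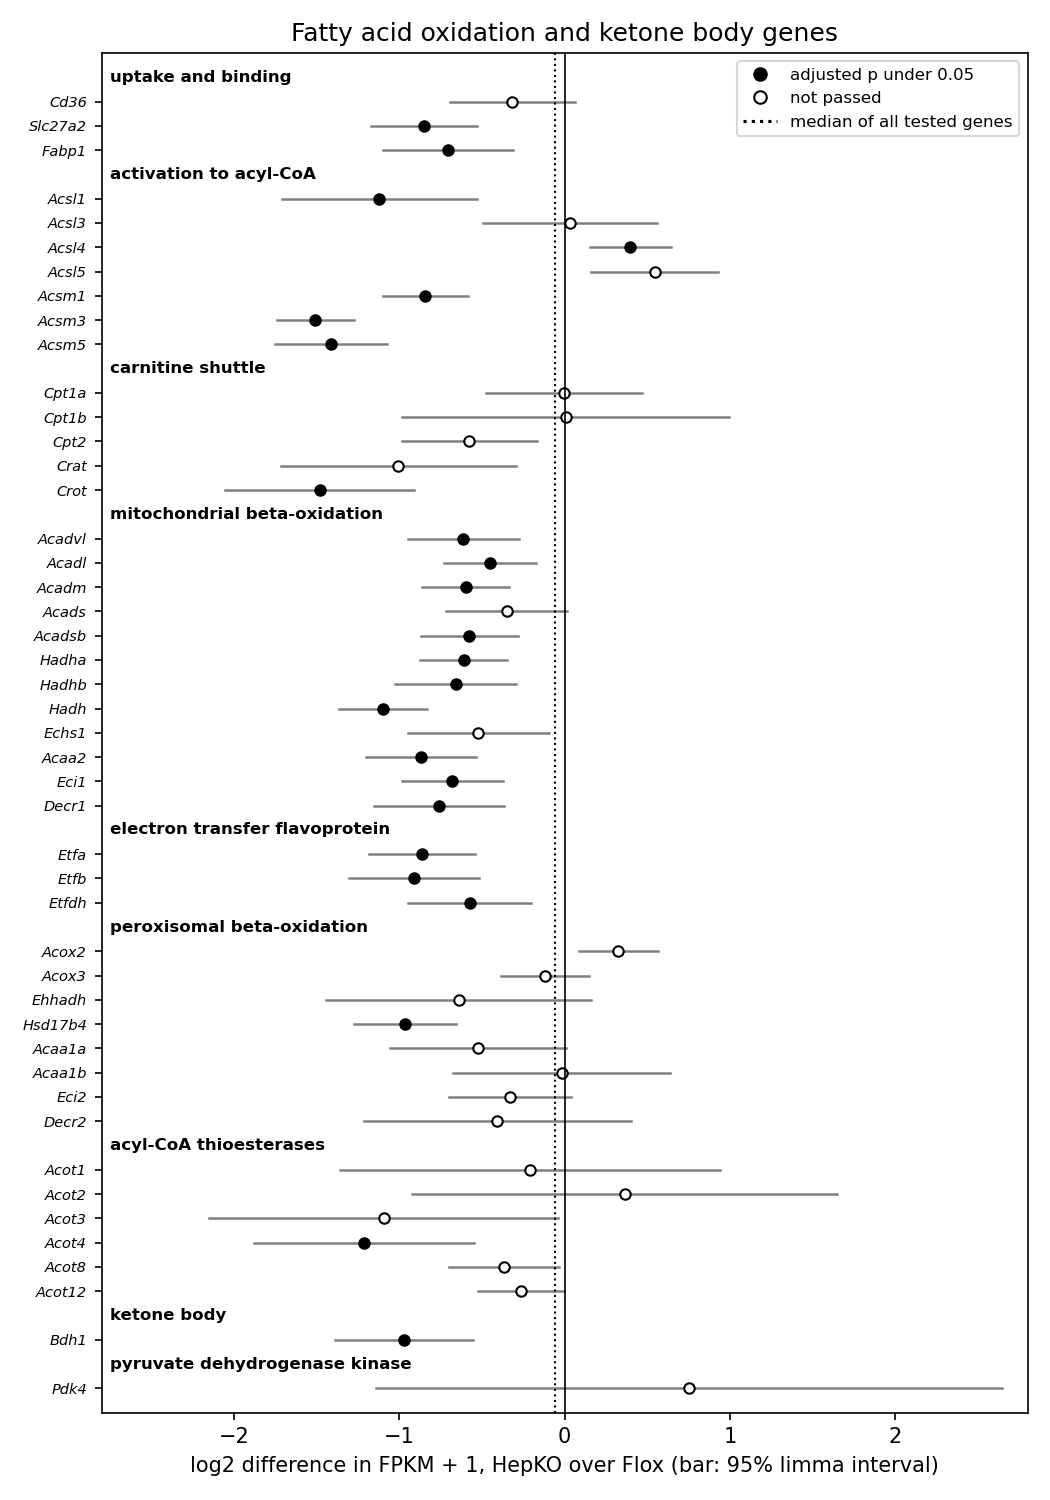
Difference between HepKO and Flox livers on the log2(FPKM + 1) scale for each of the 46 genes, sorted by role, with 95% limma intervals (n = 3 libraries per group). Filled points passed an adjusted p of 0.05, and the dotted line marks the median of all tested genes, -0.06. The 10 filled points of mitochondrial beta-oxidation and the 3 of the electron transfer flavoprotein all lie below 0, while Acsl4 is the only filled point above 0.

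Flox replicate 1 stood apart for these genes. It held the highest value of the Flox livers for 28 of the 46 genes (60.9%), among them all 5 carnitine shuttle genes and all 6 thioesterases, against 4002 of the tested genes (31.5%). It was over 1.5 times both other Flox libraries for 10 of the 46 genes (21.7%), against 618 of the tested genes (4.86%). Among 23 other known PPARA target genes it was the highest Flox library for 20, and over 1.5 times the others for 9. Without Flox replicate 1, 17 of the 46 genes were called lower and 2 higher, Acot2 and Pdk4.

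In the uptake and binding group, 2 of 3 genes fell, beside 11.0% called lower among all tested genes. Fabp1, the liver fatty acid binding protein and the most abundant transcript of the whole set (ENSMUSG00000054422, chromosome 6, 71199827 to 71205023), had 1409, 1598 and 2137 FPKM in HepKO livers, against 2889, 2742 and 2631 FPKM in Flox livers. No HepKO library reached the lowest Flox library, and the mean was 1.61-fold lower (log2 difference -0.70, SE 0.16, limma adjusted p = 0.028). This call needed all libraries other than HepKO replicate 3, and leaving out any other gave a limma adjusted p between 0.0577 and 0.0917. Slc27a2, which encodes a very long chain acyl-CoA synthetase and fatty acid transporter (ENSMUSG00000027359, chromosome 2, 126552407 to 126588243), had 84.6, 76.5 and 96.3 FPKM in HepKO livers, against 174, 156 and 137 FPKM in Flox livers. It was 1.82-fold lower in HepKO livers with separate groups (log2 difference -0.85, SE 0.13, limma adjusted p = 0.00739). Cd36, the fatty acid translocase, was at a low level in all livers, with 3.48, 3.83 and 2.31 FPKM in HepKO livers, against 3.80, 4.40 and 4.33 FPKM in Flox livers, and the groups overlapped (log2 difference -0.32, limma adjusted p = 0.207).

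Genes of activation to acyl-CoA moved in both directions. Of 7 synthetases, 4 fell, 1 rose and 2 did not pass the test, beside 11.0% called lower and 9.33% called higher among all tested genes. The 3 medium-chain synthetases all fell. Acsm3 (ENSMUSG00000030935, chromosome 7, 119760923 to 119787513) had 5.07, 4.48 and 4.81 FPKM in HepKO livers, against 15.7, 16.2 and 14.5 FPKM in Flox livers. Its adjusted p was the lowest among the 46 genes, and its mean was 3.23-fold lower in HepKO livers, and the libraries of each group lay close together (log2 difference -1.51, SE 0.098, limma adjusted p = 0.00047). Acsm5 (ENSMUSG00000030972, chromosome 7, 119519463 to 119545551) had 4.29, 4.47 and 5.12 FPKM in HepKO livers, against 11.8, 16.6 and 13.9 FPKM in Flox livers. It was 3.04-fold lower with no overlap (log2 difference -1.41, SE 0.14, limma adjusted p = 0.00168). Acsm1, the most abundant of these 3 (ENSMUSG00000033533, chromosome 7, 119607026 to 119662515), had 38.6, 44.1 and 43.6 FPKM in HepKO livers, against 78.6, 80.3 and 69.7 FPKM in Flox livers. It was 1.81-fold lower, again with separate groups (log2 difference -0.84, SE 0.11, limma adjusted p = 0.00352). Each of these 3 genes overlaps a gene on the other strand, Eri2 for Acsm3, Pdilt for Acsm5 and Gm19950 and Gm45792 for Acsm1, and the sources used here do not say whether the authors' quantification was strand-specific. Eri2 averaged 0.333 FPKM in HepKO livers and 1.41 FPKM in Flox livers.

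Among the 4 long-chain synthetases, 1 fell, 1 rose and 2 did not pass the test. Acsl1, which is prominent in liver and is a PPARA target (ENSMUSG00000018796, chromosome 8, 46471037 to 46536051), had 16.5, 14.2 and 18.0 FPKM in HepKO livers, against 46.1, 43.0 and 24.1 FPKM in Flox livers. All HepKO values were below the Flox values, of which replicate 3 was the lowest, and the mean was 2.33-fold lower (log2 difference -1.12, SE 0.25, limma adjusted p = 0.0234). The call was lost without Flox replicate 1, Flox replicate 2, HepKO replicate 1 or HepKO replicate 2, with adjusted p between 0.0569 and 0.0801. Acsl5, the most abundant of the 7 synthetases, had 64.4, 65.5 and 82.8 FPKM in HepKO livers, against 55.3, 49.9 and 39.8 FPKM in Flox livers. Every HepKO library was above every Flox library, but the gene did not pass the test over all genes (log2 difference 0.55, SE 0.16, limma adjusted p = 0.0557). It passed with limma adjusted p = 0.0337 after median-ratio rescaling of the libraries and with limma adjusted p = 0.0316 after rescaling to a sum without mitochondrial and the 50 most abundant genes. Acsl4, which prefers arachidonic acid, had 12.3, 13.9 and 13.5 FPKM in HepKO livers, against 8.99, 10.4 and 9.99 FPKM in Flox livers. It was 1.35-fold higher in HepKO livers (log2 difference 0.40, SE 0.10, limma adjusted p = 0.0388), the single rise among the 46 genes, and this call was lost with any 1 library left out. The limma adjusted p then lay between 0.0523 and 0.127, and it was 0.0925 after rescaling to a common sum. Acsl3, linked to lipid droplets, had 4.37, 4.33 and 5.83 FPKM in HepKO livers, against 4.88, 6.40 and 3.21 FPKM in Flox livers, with overlapping groups (log2 difference 0.031, limma adjusted p = 0.94). Acsl5 overlaps Zdhhc6 on the other strand and Acsl3 overlaps Utp14b on the same strand, so the levels of both are uncertain.

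Within the summed FPKM of these 4 long-chain genes, Acsl1 took 16.9%, 14.5% and 15.0% in HepKO livers, against 40.0%, 39.2% and 31.2% in Flox livers. Acsl5 took 66.1%, 66.9% and 68.9% in HepKO livers, against 47.9%, 45.5% and 51.7% in Flox livers. The ratio of Acsl5 to Acsl1 was 4.37 ± 0.398 in HepKO livers and 1.34 ± 0.275 in Flox livers (SD, n = 3 each), with no overlap between the groups. A ratio within a library is not changed by the scaling between libraries.

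**Figure D2:**
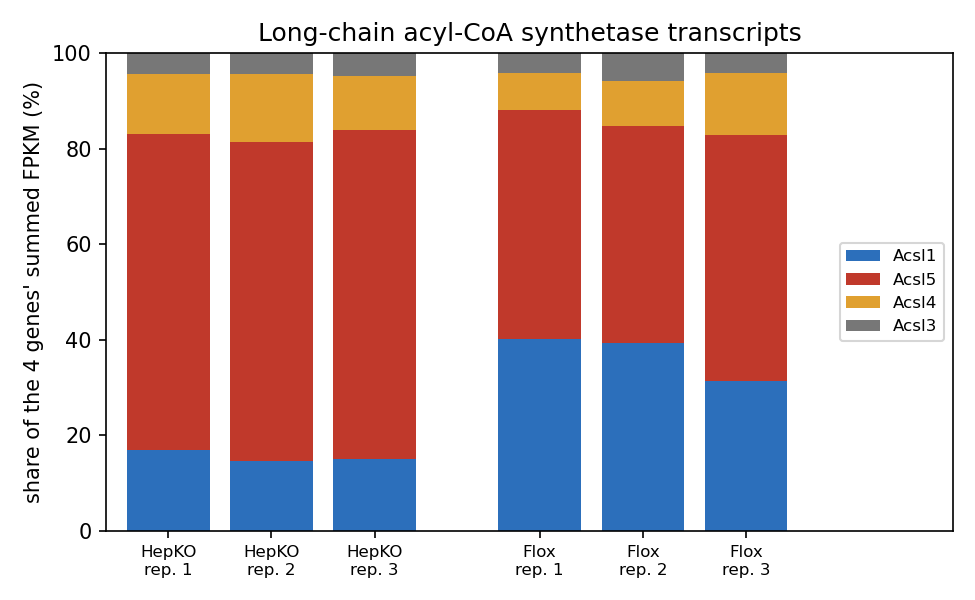
Share of each long-chain acyl-CoA synthetase gene in the summed FPKM of the 4 genes, in percent, for each of the 3 HepKO and 3 Flox libraries. Acsl1 fills 14.5% to 16.9% of the bar in HepKO livers and 31.2% to 40.0% in Flox livers, and Acsl5 fills 66.1% to 68.9% in HepKO livers and 45.5% to 51.7% in Flox livers.

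Of the 5 genes of the carnitine shuttle, 1 fell and 4 did not pass the test, where 11.0% of all tested genes were called lower. Crot, which encodes the peroxisomal carnitine octanoyltransferase that prepares shortened chains for export to mitochondria (ENSMUSG00000003623, chromosome 5, 8966033 to 8997324), had 25.0, 26.2 and 35.8 FPKM in HepKO livers, against 115, 71.0 and 66.8 FPKM in Flox livers. Its mean was 2.91-fold lower in HepKO livers (log2 difference -1.48, SE 0.24, limma adjusted p = 0.00792). Flox replicate 1 stood above the other Flox livers, and without it the mean was 2.37-fold lower. Cpt2, the inner membrane carnitine palmitoyltransferase, had 40.3, 30.5 and 39.5 FPKM in HepKO livers, against 67.7, 49.9 and 49.1 FPKM in Flox livers, with separate groups and a test just short of the threshold (log2 difference -0.58, limma adjusted p = 0.0574). Crat, the carnitine acetyltransferase, had 11.0, 7.93 and 4.88 FPKM in HepKO livers, against 22.5, 13.6 and 13.9 FPKM in Flox livers, likewise separate (log2 difference -1.01, limma adjusted p = 0.0566). It passed the test without HepKO replicate 1, with adjusted p = 0.0437, and after rescaling to a common sum, with adjusted p = 0.0464. Cpt1a, the outer membrane transferase that controls entry of long chains in liver, had 33.5, 31.8 and 35.1 FPKM in HepKO livers, against 46.3, 27.0 and 30.1 FPKM in Flox livers. The groups overlapped and the fitted difference was close to 0 (log2 difference -0.0036, limma adjusted p = 0.992, 95% interval -0.48 to 0.47). Its sign turned with the scaling, and also without Flox replicate 1 or HepKO replicate 2. Cpt1b, the muscle-type form, had 1.93, 1.50 and 0.338 FPKM in HepKO livers, against 2.09, 1.52 and 0.243 FPKM in Flox livers. It varied widely within both groups (log2 difference 0.0061, limma adjusted p = 0.993), and it overlaps Gm44502 on the same strand over 9459 bases. The 10 muscle marker genes gave 1.33 to 12.5 summed FPKM in HepKO livers, against 23.8 to 27.8 in Flox livers, with 7 of them at 0 in some libraries, and their part in the Cpt1b values was not tested. Crot overlaps Gm15610 and Crat overlaps Dolpp1 on the other strand over short stretches, and their levels are uncertain to that extent.

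Most genes of mitochondrial beta-oxidation fell. Of its 12 genes, 10 fell and 2 did not pass the test, and in 11 of the 12 no HepKO library reached the lowest Flox library. Among all tested genes 11.0% were called lower and 25.2% were separated with HepKO lower. The median log2 difference of the step was -0.61, and it lay between -0.68 and -0.52 under the other scalings tried. Summed over the 12 genes the level was 649, 729 and 822 summed FPKM in HepKO livers, against 1214, 1251 and 1128 summed FPKM in Flox livers. Calls in this step were sensitive to single libraries, since 3 of the 12 genes were called without HepKO replicate 2 and likewise 3 without Flox replicate 2, 6 without Flox replicate 3 and 10 without HepKO replicate 3.

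The acyl-CoA dehydrogenases, which open each turn of the cycle, are divided by chain length. Acadvl, for very long chains, had 95.5, 119 and 130.5 FPKM in HepKO livers, against 189, 174 and 163 FPKM in Flox livers, 1.52-fold lower in HepKO livers (log2 difference -0.61, SE 0.14, limma adjusted p = 0.0266). Acadl, for long chains, had 111, 117 and 133 FPKM in HepKO livers, against 181, 157 and 156 FPKM in Flox livers, 1.37-fold lower (log2 difference -0.45, SE 0.12, limma adjusted p = 0.0385). Acadm, for medium chains, had 50.0, 53.9 and 60.7 FPKM in HepKO livers, against 82.6, 88.2 and 79.5 FPKM in Flox livers, 1.52-fold lower (log2 difference -0.60, SE 0.11, limma adjusted p = 0.0124). All 3 had separate groups. Acadsb, for short branched chains, was the least abundant gene of the step, with 4.11, 5.42 and 4.42 FPKM in HepKO livers, against 6.95, 8.07 and 7.18 FPKM in Flox livers, and was 1.59-fold lower (log2 difference -0.58, SE 0.12, limma adjusted p = 0.0208). Acads, for short straight chains, had 32.0, 23.2 and 22.6 FPKM in HepKO livers, against 34.1, 34.6 and 30.3 FPKM in Flox livers. Its groups overlapped through HepKO replicate 1, and it did not pass the test (log2 difference -0.35, limma adjusted p = 0.154), but did without that library, with adjusted p = 0.0342. With 1 library left out, Acadvl lost its call without Flox replicate 1, 2 or 3 or HepKO replicate 2 (adjusted p between 0.0599 and 0.081), and Acadl lost it without any library other than HepKO replicate 3 (0.0839 to 0.118). Acadm lost it without Flox replicate 2 (0.0518) or HepKO replicate 2 (0.0535), and Acadsb without Flox replicate 2 or 3 or HepKO replicate 1 or 3 (0.0517 to 0.0752). Acadl overlaps Gm15793 on the same strand, and Acadvl overlaps Dvl2 and Acadsb overlaps Fgfr2 on the other strand, which makes the levels of these 3 genes uncertain.

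Hadha and Hadhb encode the alpha and beta subunits of the mitochondrial trifunctional protein, which carries out the last 3 reactions on long chains. Hadha had 24.8, 24.6 and 26.8 FPKM in HepKO livers, against 43.2, 39.9 and 35.2 FPKM in Flox livers, 1.55-fold lower in HepKO livers (log2 difference -0.61, SE 0.11, limma adjusted p = 0.012). Hadhb had 13.9, 17.8 and 20.2 FPKM in HepKO livers, against 28.4, 29.9 and 24.7 FPKM in Flox livers, 1.60-fold lower (log2 difference -0.66, SE 0.15, limma adjusted p = 0.028). The calls were lost without HepKO replicate 2 for Hadha (adjusted p = 0.0534) and without any library other than HepKO replicate 3 for Hadhb (0.0509 to 0.0927). The ratio of Hadha to Hadhb was 1.50 ± 0.249 in HepKO livers and 1.43 ± 0.0930 in Flox livers (SD, n = 3 each), with overlapping groups. The 2 genes lie head to head on chromosome 5, on opposite strands, with RefSeq starts 273 bases apart. The Hadha promoter window from RefSeq, 250 bases before to 50 after the start on GRCm38.p6, is shown on the minus strand, 5′ to 3′, because the stretch in capitals, 228 bases, also belongs to the promoter window of Hadhb.
Hadha chr5:30154931-30155230: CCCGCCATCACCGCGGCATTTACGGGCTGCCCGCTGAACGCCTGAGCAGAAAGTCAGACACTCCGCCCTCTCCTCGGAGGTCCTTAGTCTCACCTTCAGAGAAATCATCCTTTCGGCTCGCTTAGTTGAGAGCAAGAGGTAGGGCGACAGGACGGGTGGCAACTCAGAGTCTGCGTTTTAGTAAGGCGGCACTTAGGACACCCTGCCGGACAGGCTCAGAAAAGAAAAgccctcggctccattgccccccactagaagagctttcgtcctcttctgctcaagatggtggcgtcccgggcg

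The later steps of the cycle include Hadh, which had the largest fall of the 12 genes. Hadh, the short-chain 3-hydroxyacyl-CoA dehydrogenase (ENSMUSG00000027984, chromosome 3, 131233419 to 131272101), had 14.6, 14.1 and 13.9 FPKM in HepKO livers, against 28.2, 35.4 and 31.8 FPKM in Flox livers. The HepKO libraries differed by less than 1 FPKM from each other, and the mean was 2.23-fold lower (log2 difference -1.10, SE 0.11, limma adjusted p = 0.00171). Acaa2, the mitochondrial thiolase and the most abundant gene of the step (ENSMUSG00000036880, chromosome 18, 74779197 to 74806208), had 247, 295 and 339 FPKM in HepKO livers, against 507, 581 and 514 FPKM in Flox livers. It was 1.82-fold lower with separate groups (log2 difference -0.87, SE 0.14, limma adjusted p = 0.00788). Echs1, the short-chain enoyl-CoA hydratase, had 13.4, 10.7 and 17.8 FPKM in HepKO livers, against 20.9, 20.9 and 18.6 FPKM in Flox livers. Its groups were separate, but it did not pass the test (log2 difference -0.52, limma adjusted p = 0.0839); without HepKO replicate 3, the highest HepKO library, the adjusted p was 0.0243. The auxiliary enzymes for unsaturated chains both fell. Eci1, an enoyl-CoA isomerase, had 21.4, 23.5 and 26.6 FPKM in HepKO livers, against 41.5, 40.8 and 33.9 FPKM in Flox livers, 1.63-fold lower (log2 difference -0.68, SE 0.13, limma adjusted p = 0.014). Decr1, the 2,4-dienoyl-CoA reductase, had 21.8, 24.4 and 27.2 FPKM in HepKO livers, against 51.5, 41.6 and 34.6 FPKM in Flox livers, 1.74-fold lower (log2 difference -0.76, SE 0.17, limma adjusted p = 0.0221). Eci1 lost its call without Flox replicate 2 (0.0564) or HepKO replicate 2 (0.0553), and Decr1 without Flox replicate 2 (0.0689), HepKO replicate 1 (0.0633) or HepKO replicate 2 (0.0709). Echs1 overlaps Paox on the other strand, which makes its level uncertain.

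The electron transfer flavoprotein takes electrons from the acyl-CoA dehydrogenases, and its oxidoreductase passes them to ubiquinone. All 3 genes fell, beside 11.0% called lower among all tested genes. Etfb, the beta subunit (ENSMUSG00000004610, chromosome 7, 43444083 to 43457800), had 72.6, 86.5 and 113 FPKM in HepKO livers, against 170.0, 164 and 172 FPKM in Flox livers, 1.86-fold lower (log2 difference -0.91, SE 0.16, limma adjusted p = 0.0121). Etfa, the alpha subunit (ENSMUSG00000032314, chromosome 9, 55454508 to 55512243), had 52.8, 62.9 and 73.0 FPKM in HepKO livers, against 111, 120.0 and 112 FPKM in Flox livers, 1.82-fold lower (log2 difference -0.86, SE 0.13, limma adjusted p = 0.00713). The Flox libraries of both subunits lay close together, and every HepKO library was below them. The ratio of Etfa to Etfb was 0.700 ± 0.0470 in HepKO livers and 0.678 ± 0.0463 in Flox livers (SD, n = 3 each), with overlapping groups. Etfdh, the oxidoreductase, had 19.2, 20.2 and 22.6 FPKM in HepKO livers, against 38.9, 28.8 and 26.9 FPKM in Flox livers, 1.53-fold lower (log2 difference -0.57, SE 0.16, limma adjusted p = 0.045). Its call was lost with any 1 library left out (adjusted p between 0.0573 and 0.124) and after median-ratio rescaling (0.0739). Etfb overlaps Mir7051 on the same strand and Etfdh overlaps 4930579G24Rik on the other strand, and their levels are uncertain to that extent.

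**Figure D3:**
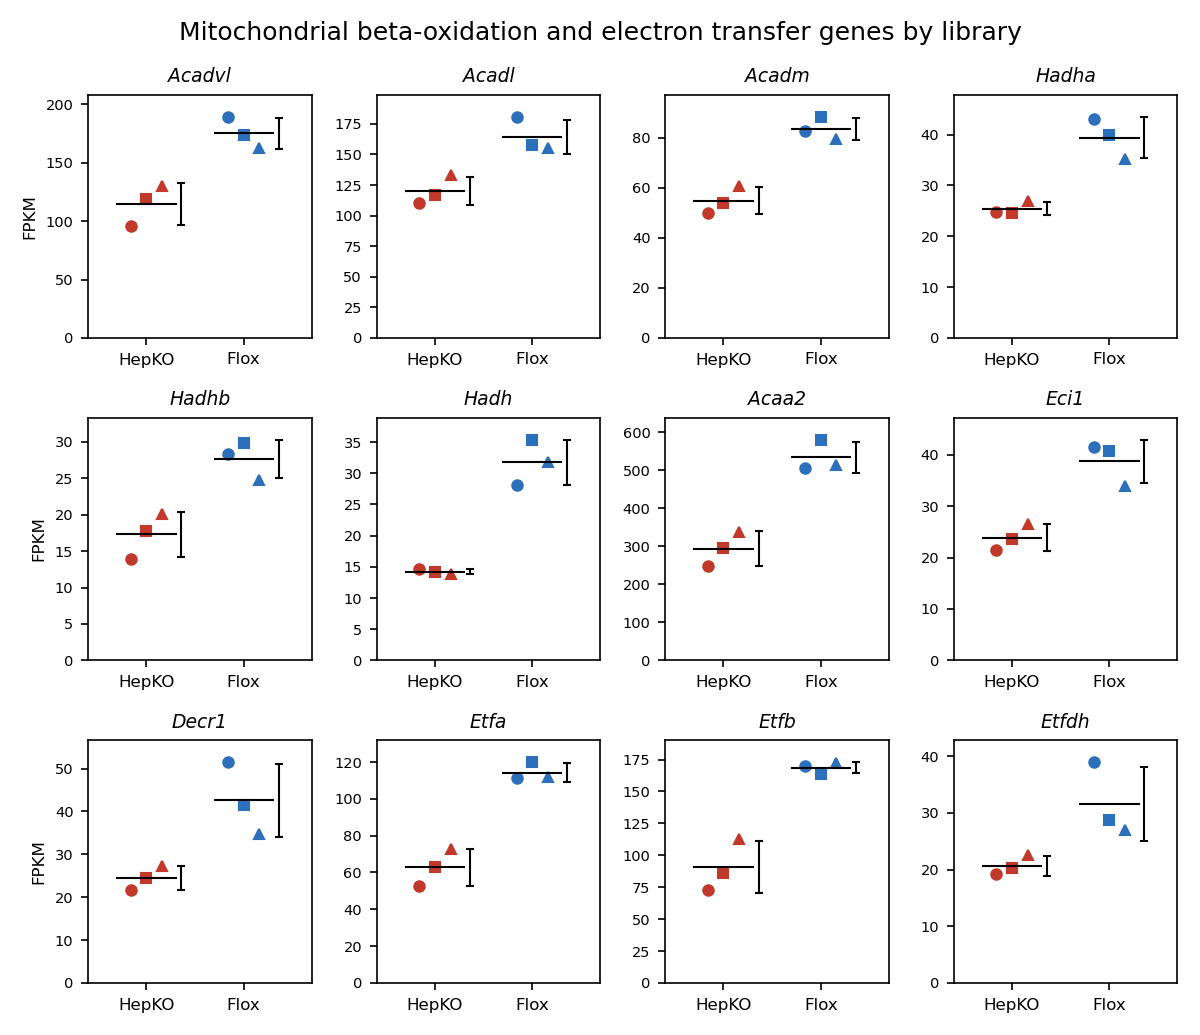
FPKM of 9 mitochondrial beta-oxidation genes and the 3 electron transfer flavoprotein genes in each library. Circles, squares and triangles are replicates 1, 2 and 3, lines are group means and bars are SD (n = 3). In all 12 panels every HepKO point lies below every Flox point, and Hadh has the largest fold difference of the 12, 2.23-fold.

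Peroxisomal beta-oxidation gave 1 fall among 8 genes, and 7 did not pass the test, beside 11.0% called lower among all tested genes. Hsd17b4, the D-bifunctional protein that hydrates and oxidises straight and branched chains (ENSMUSG00000024507, chromosome 18, 50128201 to 50196269), had 42.1, 46.4 and 53.9 FPKM in HepKO livers, against 101, 94.3 and 84.5 FPKM in Flox livers. It was 1.97-fold lower with separate groups (log2 difference -0.97, SE 0.13, limma adjusted p = 0.00404). Ehhadh, the L-bifunctional enzyme and a PPARA target, had 74.6, 68.2 and 102 FPKM in HepKO livers, against 214, 106 and 88.4 FPKM in Flox livers. Flox replicate 1 stood far above the other Flox livers, the groups overlapped, and the gene did not pass the test (log2 difference -0.64, limma adjusted p = 0.222). Without Flox replicate 1 the mean was 1.19-fold lower in HepKO livers. Acox2, the oxidase of branched chains and bile acid intermediates, had 87.5, 73.9 and 77.8 FPKM in HepKO livers, against 62.9, 63.0 and 64.1 FPKM in Flox livers. Every HepKO library was above every Flox library, without passing the test (log2 difference 0.32, limma adjusted p = 0.0646); after median-ratio rescaling the adjusted p was 0.0472. The ratio of Acox2 to Hsd17b4, which act on the same bile acid intermediates, was 1.71 ± 0.332 in HepKO livers and 0.682 ± 0.0705 in Flox livers (SD, n = 3 each), with no overlap. Hsd17b4 overlaps the pseudogene Cd63-ps on the same strand over 875 bases, so its level is uncertain; Cd63-ps averaged 4.69 FPKM in HepKO livers and 2.48 FPKM in Flox livers.

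The thiolase Acaa1b, the most abundant gene of the peroxisomal step, had 170.3, 208 and 294 FPKM in HepKO livers, against 314, 181 and 190.4 FPKM in Flox livers, with overlapping groups and a difference close to 0 whose sign turned with the scaling (log2 difference -0.018, limma adjusted p = 0.974, 95% interval -0.67 to 0.64). Its paralogue Acaa1a had 12.8, 18.7 and 24.8 FPKM in HepKO livers, against 27.9, 27.4 and 24.3 FPKM in Flox livers (log2 difference -0.52, limma adjusted p = 0.145), and passed without HepKO replicate 3, with adjusted p = 0.0435. The longest open reading frames of these 2 genes are 96.5% identical, so the split of reads between them is uncertain. Eci2, an isomerase found in peroxisomes and mitochondria, Decr2, the peroxisomal dienoyl-CoA reductase, and Acox3, an oxidase of branched chains, had overlapping groups and log2 differences of -0.33, -0.41 and -0.12. Decr2 passed the test without Flox replicate 3, with a log2 difference of -0.80 and an adjusted p of 0.0464. Summed over the 8 genes the level was 438, 464 and 615 summed FPKM in HepKO livers, against 808, 539 and 507 summed FPKM in Flox livers, with overlapping groups. Eci2 overlaps Gm16984 and Acaa1a overlaps Myd88 on the other strand, and both are uncertain for that reason too.

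The summed level of the mitochondrial step divided by that of the peroxisomal step was 1.48, 1.57 and 1.34 in HepKO livers, against 1.50, 2.32 and 2.23 in Flox livers. Flox replicate 1, with the highest peroxisomal sum, fell among the HepKO values, and the other 2 Flox libraries lay above all others. The activation step divided by the mitochondrial step was 0.224, 0.207 and 0.211 in HepKO livers, against 0.182, 0.178 and 0.155 in Flox livers, with every HepKO library above every Flox library. The activation sum itself was 145, 151 and 174 summed FPKM in HepKO livers, against 221, 223 and 175 summed FPKM in Flox livers, a smaller gap than that of the mitochondrial sum. This sum and the ratio above include Acsl5, the most abundant synthetase, which averaged 70.9 FPKM in HepKO livers and 48.3 FPKM in Flox livers. The median log2 difference over genes was -0.84 for the activation step and -0.61 for the mitochondrial step, the reverse order. The electron transfer flavoprotein sum was 145, 169.5 and 208 summed FPKM in HepKO livers, against 320.2, 313 and 311 summed FPKM in Flox livers, and the carnitine shuttle sum was 112, 98.0 and 116 summed FPKM in HepKO livers, against 254, 163 and 160.1 summed FPKM in Flox livers. No test was made of the difference between steps.

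**Figure D4:**
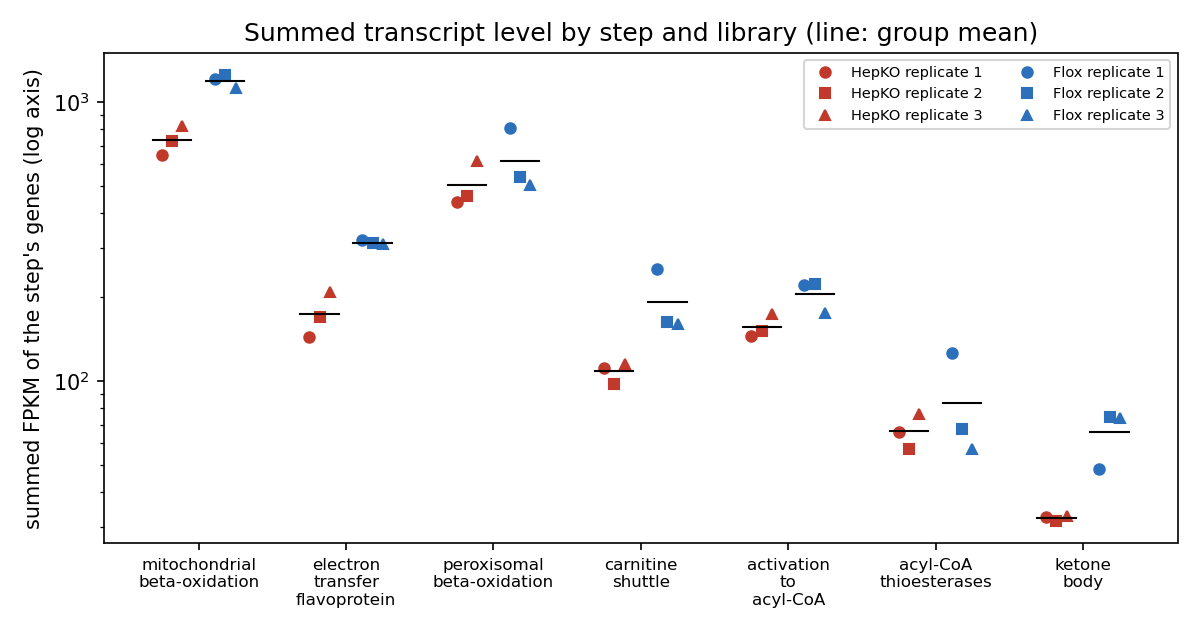
Summed FPKM of the genes of each step on a log axis, for each HepKO and Flox library, with a line at each group mean (n = 3). The mitochondrial, electron transfer and carnitine sums of all HepKO libraries lie below those of all Flox libraries, while the peroxisomal and thioesterase sums overlap and are highest in Flox replicate 1.

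Acyl-CoA thioesterases release free fatty acids from coenzyme A. Of their 6 genes 1 fell and 5 did not pass the test, beside 11.0% called lower among all tested genes. Acot4, a peroxisomal form acting on dicarboxylic acids (ENSMUSG00000052392, chromosome 12, 84038379 to 84048601), had 2.61, 2.82 and 4.22 FPKM in HepKO livers, against 13.1, 8.32 and 5.83 FPKM in Flox livers, 2.82-fold lower (log2 difference -1.21, SE 0.28, limma adjusted p = 0.0265). Leaving out Flox replicate 2 gave a limma adjusted p of 0.0756, leaving out HepKO replicate 1 gave 0.0817, and leaving out HepKO replicate 2 gave 0.0853. Acot12, the cytosolic acetyl-CoA hydrolase and the most abundant of the 6, had 24.2, 23.8 and 23.1 FPKM in HepKO livers, against 32.6, 27.1 and 26.6 FPKM in Flox livers, separate but not past the threshold (log2 difference -0.26, limma adjusted p = 0.139). Acot2, the mitochondrial form, had 21.8, 17.7 and 32.0 FPKM in HepKO livers, against 45.2, 10.6 and 11.4 FPKM in Flox livers. Flox replicate 1 was above every HepKO library and the other 2 Flox libraries were below every HepKO library (log2 difference 0.36, limma adjusted p = 0.668), and without Flox replicate 1 the gene was higher in HepKO livers, with a log2 difference of 1.01 and an adjusted p of 0.0443. Acot1, its cytosolic paralogue, had 10.2, 4.96 and 8.23 FPKM in HepKO livers, against 16.6, 10.3 and 3.75 FPKM in Flox livers (log2 difference -0.21, limma adjusted p = 0.798), and the sign of its difference changed without Flox replicate 1 or HepKO replicate 2. The reading frames of Acot1 and Acot2 are 95.2% identical, and those of Acot1 and Acot3 83.9%, so levels within this cluster are uncertain. Acot3, a peroxisomal form, had 1.39, 1.33 and 1.05 FPKM in HepKO livers, against 9.20, 2.88 and 1.80 FPKM in Flox livers, and the groups were separate (log2 difference -1.09, limma adjusted p = 0.129). Acot8, another peroxisomal form, was also separate and lower, with a log2 difference of -0.36 and a limma adjusted p of 0.113. Acot8 overlaps Snx21 and Acot12 overlaps 4833422C13Rik on the other strand, and both levels are uncertain.

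Bdh1, the mitochondrial dehydrogenase that turns acetoacetate into 3-hydroxybutyrate, was the ketone body gene of the set (ENSMUSG00000046598, chromosome 16, 31422280 to 31458901). It had 32.5, 31.6 and 32.9 FPKM in HepKO livers, against 48.7, 74.5 and 73.7 FPKM in Flox livers. The HepKO libraries lay within 2 FPKM of each other and below every Flox library, and the mean was 2.03-fold lower (log2 difference -0.97, SE 0.18, limma adjusted p = 0.0119). Flox replicate 1 was the lowest Flox library here, unlike in the thioesterases, and without it the mean was 2.29-fold lower. Among 6 genes of ketone body use and export, 3 fell and 1 rose, with a median log2 difference of -0.27. The shares over all tested genes were 11.0% lower and 9.33% higher. Slc16a6, a monocarboxylate transporter through which zebrafish liver exports ketone bodies, had 4.03, 4.12 and 4.31 FPKM in HepKO livers, against 2.17, 1.64 and 1.86 FPKM in Flox livers, and it rose (log2 difference 0.84, limma adjusted p = 0.0035). Slc16a7, another monocarboxylate transporter, fell (log2 difference -0.63, limma adjusted p = 0.0167), a call lost without HepKO replicate 2 (0.0652). Bdh2, a cytosolic 3-hydroxybutyrate dehydrogenase, was at a low level and fell (log2 difference -0.56, limma adjusted p = 0.0364), a call lost without Flox replicate 2 (0.0934), Flox replicate 3 (0.0943), HepKO replicate 1 (0.102) or HepKO replicate 2 (0.101). By limma, 0 of these 6 genes were called lower without HepKO replicate 2, and 1 was without HepKO replicate 1, Flox replicate 2 or Flox replicate 3.

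Pdk4 inhibits the pyruvate dehydrogenase complex and so spares carbohydrate when fatty acids are burned. It had 8.10, 7.35 and 16.1 FPKM in HepKO livers, against 24.0, 2.49 and 2.12 FPKM in Flox livers. Flox replicate 1 held the highest level of all 6 libraries and the other 2 Flox livers the lowest, so the groups overlapped and the test did not pass (log2 difference 0.75, limma adjusted p = 0.539, 95% interval -1.14 to 2.65). Without Flox replicate 1 the gene was higher in HepKO livers, with a log2 difference of 1.73 and an adjusted p of 0.0229. Of 11 other genes of pyruvate dehydrogenase and its regulation, 3 fell and 8 did not pass the test, with a median of -0.079. Over all tested genes 11.0% were called lower. The genes that fell were Mpc2, a subunit of the mitochondrial pyruvate carrier (log2 difference -0.90, limma adjusted p = 0.0122), and the complex subunits Dlat (log2 difference -0.48, limma adjusted p = 0.0296) and Pdhb (log2 difference -0.41, limma adjusted p = 0.0352). Dlat and Pdhb lost their calls without Flox replicate 2, Flox replicate 3, HepKO replicate 1 or HepKO replicate 2, with adjusted p between 0.0823 and 0.0971 for Dlat and between 0.082 and 0.115 for Pdhb.

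**Figure D5:**
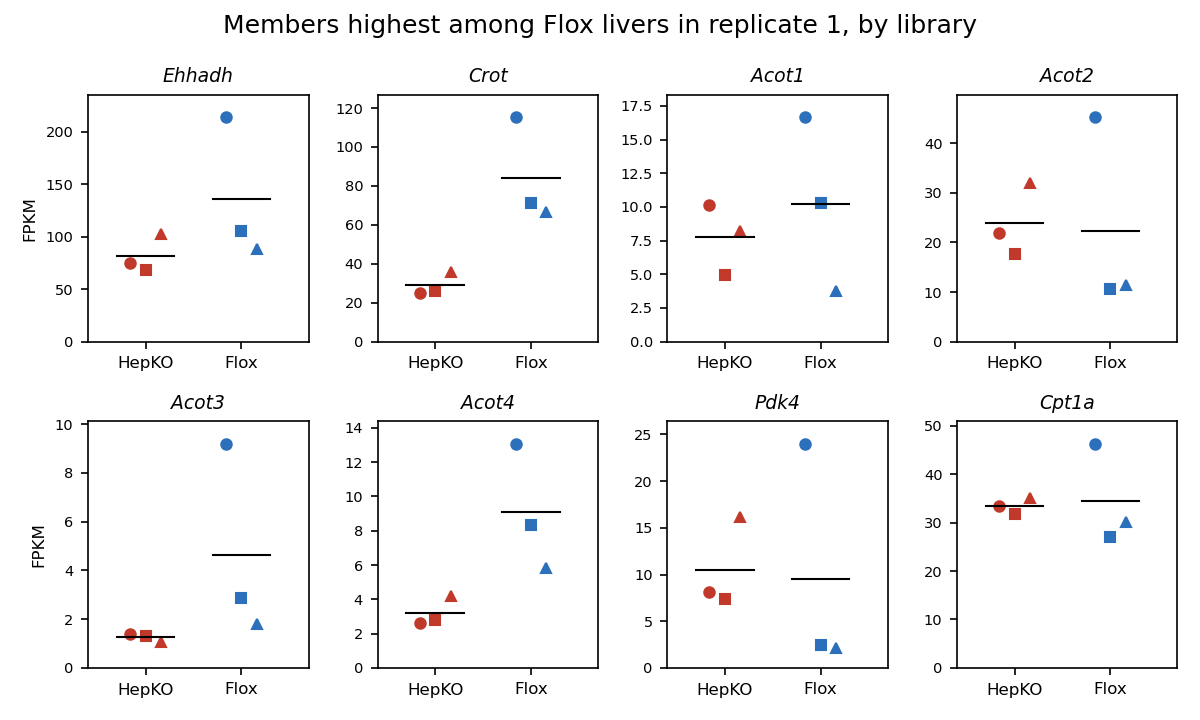
FPKM in each library of 8 genes in which replicate 1 was the highest Flox liver. Circles, squares and triangles are replicates 1, 2 and 3, and lines are group means. For Acot2 and Pdk4 the other 2 Flox points lie below all HepKO points, while for Crot, Acot3 and Acot4 all Flox points lie above the HepKO points.

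The rest of the pathway was read from lists of genes outside the 46, whose counts stand beside 11.0% called lower and 9.33% called higher among all tested genes. Of 28 tested genes of mitochondrial acyl-CoA metabolism, which include branched-chain amino acid breakdown, 15 fell and 1 rose, with a median log2 difference of -0.49. Acad11, an acyl-CoA dehydrogenase for very long chains, had 13.2, 12.5 and 13.2 FPKM in HepKO livers, against 32.2, 28.0 and 24.1 FPKM in Flox livers (log2 difference -1.05, limma adjusted p = 0.00273). Slc25a20, the carnitine-acylcarnitine translocase that links Cpt1a to Cpt2, had 16.8, 17.3 and 22.3 FPKM in HepKO livers, against 41.3, 33.9 and 28.9 FPKM in Flox livers (log2 difference -0.85, limma adjusted p = 0.0166), a call lost without Flox replicate 2 (0.0565), HepKO replicate 1 (0.052) or HepKO replicate 2 (0.0639). Hibadh, of valine breakdown, also fell (log2 difference -0.84, limma adjusted p = 0.00739), and Acot9, a mitochondrial thioesterase, was the gene that rose (log2 difference 0.57, limma adjusted p = 0.0105). Without HepKO replicate 2, 8 of the 28 were called lower, and likewise 8 without Flox replicate 2, 9 without HepKO replicate 1 and 10 without Flox replicate 3.

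Of 37 other peroxisomal genes, 18 fell and 1 rose, with a median of -0.49, beside 11.0% lower and 9.33% higher among all tested genes. Hacl1, of the alpha-oxidation of branched chains, had 20.9, 20.4 and 24.8 FPKM in HepKO livers, against 79.3, 70.7 and 54.2 FPKM in Flox livers, 3.09-fold lower (log2 difference -1.57, limma adjusted p = 0.00183). Idh1, which supplies NADPH in cytosol and peroxisomes, was 2.38-fold lower (log2 difference -1.24, limma adjusted p = 0.00344), and Amacr, the racemase of branched chains and bile acid intermediates, was 2.27-fold lower (log2 difference -1.14, limma adjusted p = 0.00395). Baat, which conjugates bile acids in peroxisomes, rose (log2 difference 0.41, limma adjusted p = 0.0274), a call lost without Flox replicate 2 (0.0808), Flox replicate 3 (0.0978) or HepKO replicate 2 (0.103). Without HepKO replicate 2, 11 of the 37 were called lower, and 12 were without Flox replicate 2 or without HepKO replicate 1.

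The transcript of the PPARA receptor itself did not pass the test. Ppara had 5.20, 7.14 and 6.11 FPKM in HepKO livers, against 7.50, 4.55 and 5.13 FPKM in Flox livers, with overlapping groups (log2 difference 0.10, limma adjusted p = 0.735, 95% interval -0.35 to 0.55), and Ppargc1a, its coactivator, had 0.857, 0.672 and 1.09 FPKM in HepKO livers, against 2.14, 0.689 and 0.784 FPKM in Flox livers (log2 difference -0.18, limma adjusted p = 0.64). Of 23 regulators of fatty acid oxidation tested, 7 fell and 1 rose, with a median of -0.24. Over all tested genes 11.0% were called lower and 9.33% higher. Acacb, whose product makes the malonyl-CoA that inhibits carnitine palmitoyltransferase 1, had 0.987, 1.03 and 1.16 FPKM in HepKO livers, against 5.61, 4.0 and 4.06 FPKM in Flox livers, 4.31-fold lower (log2 difference -1.42, limma adjusted p = 0.00145). The transcription factors Klf15 (log2 difference -1.28, limma adjusted p = 0.00195) and Foxa2 (log2 difference -0.90, limma adjusted p = 0.00791), both active in fasting liver, also fell. Sirt1, a deacetylase that acts on this pathway, rose (log2 difference 0.56, limma adjusted p = 0.0429), and its call was lost with any 1 library left out (adjusted p between 0.0646 and 0.101). Rxra, which encodes a partner receptor of PPARA, was also called lower. That call was lost without any 1 library other than HepKO replicate 3 (limma adjusted p between 0.056 and 0.0943). Prkaa1 and Sirt3 were called lower as well, and these calls too depended on single libraries. Of the 23 regulators, 4 were called lower without HepKO replicate 2, Flox replicate 1 or Flox replicate 2.

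Other PPARA target genes went in both directions, with 4 lower and 3 higher of 23 and a median of -0.11. Among all tested genes 11.0% were called lower and 9.33% higher, with a median of -0.06. Hilpda, a lipid droplet protein that inhibits lipolysis, had 69.6, 88.4 and 74.2 FPKM in HepKO livers, against 11.0, 3.77 and 4.83 FPKM in Flox livers, the largest difference of the lists (log2 difference 3.49, limma adjusted p = 0.00142). Aldh3a2, a fatty aldehyde dehydrogenase, had 5.80, 5.14 and 7.96 FPKM in HepKO livers, against 37.1, 22.7 and 14.9 FPKM in Flox livers (log2 difference -1.76, limma adjusted p = 0.0121), and Cyp4a12a, an omega-hydroxylase of fatty acids, had 25.3, 18.2 and 17.4 FPKM in HepKO livers, against 79.5, 61.5 and 49.9 FPKM in Flox livers (log2 difference -1.59, limma adjusted p = 0.00394). Without Flox replicate 1 the counts in this list were 4 lower and 7 higher, and without Flox replicate 3 they were 6 lower and 3 higher. Among 10 other uptake and binding genes, 2 fell and 1 rose, with a median of -0.12, beside the same shares of all tested genes. Fabp4, the adipocyte-type binding protein, rose (log2 difference 1.58, limma adjusted p = 0.00196). The 6 adipocyte markers that had a row, Fabp4 included, gave 14.7 to 21.5 summed FPKM in HepKO livers, against 4.80 to 6.32 in Flox livers. Most of this sum was Fabp4 itself, with 17.2 of 18.0 FPKM on average in HepKO livers and 5.03 of 5.77 in Flox livers. Among the other adipocyte markers Adrb3 did not pass the test (log2 difference 0.060, limma adjusted p = 0.79), and Adipoq was at 0 in all 6 libraries. Fabp3, the heart-type form, fell (log2 difference -1.17, limma adjusted p = 0.0244), a call lost without Flox replicate 2 (0.0669), Flox replicate 3 (0.0773) or HepKO replicate 1 (0.0538), and the summed level of the muscle markers is given with Cpt1b. Got2, a plasma membrane and mitochondrial fatty acid binding protein and aminotransferase, fell (log2 difference -0.51, limma adjusted p = 0.0115), a call lost without Flox replicate 2 (0.0509) or HepKO replicate 2 (0.0558). Of the 10 genes, 0 were called lower without Flox replicate 2. The part of adipocytes and muscle in these values was not tested.

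PPARA binds DNA with a partner receptor at a direct repeat of AGGTCA with 1 base between. RefSeq promoter windows, 250 bases before to 50 after each start on GRCm38.p6, were found for 41 of the 46 genes, with 45 windows in all. AGGTCA on either strand was present in 12 of the 45 windows (26.7%), against 5340 of 32851 windows of all genes (16.3%). It was present in 6 of the 22 windows of genes that fell (27.3%) and in 6 of the 22 windows of genes that did not pass the test (27.3%). The latter 6 include overlapping windows of Acot3 that begin at 84051894 and 84051901, so a match can be counted more than once and windows are not independent genes. The exact direct repeat was in none of the 45 windows and in 13 of the 32851 (0.0396%). These letters describe the windows, and binding to them was not tested. Repeats with a mismatch were not searched for, so the absence says only that no exact copy lies within these 300 bases. The windows of 3 genes with a match are shown 5′ to 3′ on the gene's own strand, plus for Fabp1 and Cpt1a and minus for Acadm, because Fabp1 and Acadm are abundant genes that fell, while Cpt1a controls entry into the pathway and did not pass the test. Capitals mark AGGTCA read on the opposite strand, at 67 and 9 bases before the start in Fabp1, 249 before it in Acadm and 94 before it in Cpt1a.
Fabp1 chr6:71199629-71199928: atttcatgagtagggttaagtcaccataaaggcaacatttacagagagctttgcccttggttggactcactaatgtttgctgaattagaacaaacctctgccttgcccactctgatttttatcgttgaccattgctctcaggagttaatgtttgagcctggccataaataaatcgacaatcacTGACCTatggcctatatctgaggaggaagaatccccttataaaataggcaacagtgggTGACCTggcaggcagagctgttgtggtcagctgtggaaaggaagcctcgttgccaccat
Acadm chr3:153944594-153944893: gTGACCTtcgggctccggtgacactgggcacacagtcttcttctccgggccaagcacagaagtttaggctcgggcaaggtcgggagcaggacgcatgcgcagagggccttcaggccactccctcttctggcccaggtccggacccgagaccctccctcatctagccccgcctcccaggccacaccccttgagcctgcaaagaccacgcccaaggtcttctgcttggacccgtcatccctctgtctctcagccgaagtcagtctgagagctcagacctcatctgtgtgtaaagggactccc
Cpt1a chr19:3323051-3323350: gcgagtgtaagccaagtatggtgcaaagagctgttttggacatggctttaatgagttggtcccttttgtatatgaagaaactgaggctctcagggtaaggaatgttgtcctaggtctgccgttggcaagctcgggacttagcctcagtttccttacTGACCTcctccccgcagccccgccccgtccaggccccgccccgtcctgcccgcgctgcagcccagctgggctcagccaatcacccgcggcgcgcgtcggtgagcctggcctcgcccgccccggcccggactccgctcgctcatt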

How the data were processed

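Poly(A) RNA-seq libraries were made from whole liver with a kit that marks the strand, per the labels' protocols. The authors deposited FPKM per gene and library, with p-values and q-values of their own comparison, per the file headers, and the sources used here do not say how those were computed. Tools listed in the submitters' processing notes, with no role stated, are StringTie 1.3.4d, HISAT2 2.0.4, cutadapt 1.9, edgeR and DESeq2, and no genome build is listed. Gene coordinates are those deposited, and 43 of the 46 genes have the same coordinates in GENCODE M21 (GRCm38), the exceptions being Acsl5, Crat and Acaa1a.

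Because FPKM carry no read counts, a count model was not applied, and depth is unknown. Genes averaging 0.5 FPKM or more across the 6 libraries (12712) were fitted on log2(FPKM + 1) by genotype with limma 3.58.1 in R 4.3.3 (variance trend, two-sided, Benjamini-Hochberg over all tested genes, threshold 0.05). Log2 differences are HepKO over Flox on this scale, which understates changes of low genes, and fold values are ratios of mean FPKM. The fit was also run on simulated data with independent noise in each library, which cannot speak to the dependence of calls on single libraries. Alternatives were other pseudocounts, filters, scalings, limma settings, thresholds, a replicate block and each library left out. Every member past the threshold, the 2 most abundant of each role and the 3 largest called changes of each list are named. Members and lists were chosen with earlier results of these data known. Those of the 46 genes that overlap another gene on either strand or have a near-identical paralogue among them are stated as uncertain.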

Additional observations from a re-analysis of the deposited data

How the results depend on the processing

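All 24 called genes kept their sign in every fit, and 15 kept their call under all 10 other pseudocount, filter, scaling and limma settings. Without a filter on low values, 15 genes were called lower and 0 higher. Genes called higher numbered 3 after median-ratio rescaling, 0 after rescaling to a common sum and 2 after rescaling to a sum without mitochondrial and the 50 most abundant genes. A threshold of 0.01 left 939 genes called in all, 9 of the 46 lower and 0 higher, and a threshold of 0.10 gave 3 higher. With 1 library left out, all called genes numbered 1306 to 2282, the 46 genes gave 12 to 23 lower and 0 to 2 higher, and Nedd4 had log2 differences of -1.07 to -0.99. The median of the 46 genes lay between -0.68 and -0.50 over these settings. Over all tested genes the split was 1397 lower and 1186 higher, against 1137 lower and 1434 higher after median-ratio rescaling and 1417 lower and 1093 higher after rescaling to a common sum. Signs turned only for genes that did not pass the test. Cpt1a changed to 0.084 and 0.056 and Acaa1b to 0.072 and 0.043 under median-ratio rescaling and the sum without mitochondrial and abundant genes, Acsl3 to -0.016 and Cpt1b to -0.023 under the common sum, and Cpt1b to -0.0037 with a pseudocount of 5. With 1 library left out, log2 differences ranged from -0.15 to 0.22 for Cpt1a, -0.38 to 0.34 for Cpt1b, -0.23 to 0.23 for Acaa1b, -0.73 to 0.22 for Acot1 and -0.19 to 0.22 for Acsl3. The cause was not tested. Deviations of same-numbered libraries from their group means correlated by 0.0029, 0.0021 and -0.025, which does not settle whether these libraries were paired. A replicate block gave 1551 called genes, 14 of the 46 lower and 0 higher. Depth is unknown, so differences in genes near 1 FPKM are limited by counting error that cannot be given.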
